A study of Mus musculus with 20 samples.

Results

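Untreated mouse tail tendon tenocytes were profiled by RNA sequencing at 0 h, before any insulin-like growth factor 1 (IGF1) was added, in 4 of the 20 libraries of an IGF1 time course. The 4 libraries are those whose titles give 0 h, replicates 1 to 4, and they were read from the 4 raw count columns of that name. The other 16 libraries received IGF1 for 1 to 24 h and are not described here, and no contrast with them was made. The study as a whole follows how the transcriptome of these cells moves with time under IGF1.

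The cells came from tail tendons of adult C57Bl/6 mice labelled wild type, and the untreated cultures carried no transgene and no cytokine in the labels. The labels do not give the sex of the mice, the passage of the cells, or whether the replicates came from separate mice or cultures, so the spread given below is that between these libraries and may be technical. A tenocyte is the fibroblast of tendon, grown here outside the tendon and away from load. It lays down a matrix made mainly of type I collagen, whose triple helix of α1 and α2 chains assembles in the endoplasmic reticulum, is secreted as procollagen, trimmed by proteases, packed into fibrils with type III and type V collagen and small leucine-rich proteoglycans, and crosslinked by lysyl oxidase. The transcription factors scleraxis (Scx) and Mohawk (Mkx) and the membrane protein tenomodulin (Tnmd) mark the lineage, and IGF1 acts on such cells through the receptor Igf1r and the adaptors Irs1 and Irs2.

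Total counts were 22282231, 20287207, 18666812 and 21822163 in replicates 1 to 4. The table lists 29986 genes, each with at least 1 count somewhere in the 20 libraries, so genes never counted in the series are not in it. A gene was taken as detected at a CPM (counts per 1000000 counts of the library) of 1 or more in all 4 libraries. By that rule 12119 genes (40.4%) were detected, and they held 99.7% of the counts. A further 12291 genes had some counts but were not detected, and 5576 genes (18.6%) had no count in any of the 4 libraries. Of the detected genes 95.9% were protein-coding, against 24.2% of the genes without a count. A library gave 12608 to 12671 genes at 1 CPM or more.

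Expression was concentrated in few genes. Among detected genes, 3294 had a mean of 1 to 10 CPM and held 1.60% of the counts, 6881 had 10 to 100 CPM and held 26.5%, 1848 had 100 to 1000 CPM and held 41.7%, and 96 had 1000 CPM or more and held 30%. Of those 96 genes 8 were above 10000 CPM, and all 8 encode secreted matrix proteins or the enzyme that crosslinks them. The 10 most counted genes took 14.3% to 15.3% of a library and the 100 most counted took 29.9% to 31.1%, with replicate 1 at the top of both ranges. The median detected gene stood at 26.1 CPM. Protein-coding genes with a mean of 100 CPM or more had a median exon length of 5388 bases and 10 exons, while those without a count had 2358 bases and 4 exons, so CPM is not a measure on which genes of unlike length can be ranked. Levels of different genes are therefore set side by side below as TPM (transcripts per 1000000), which divides by the annotated exon length, and CPM is used for 1 gene across libraries.

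**Figure D1:**
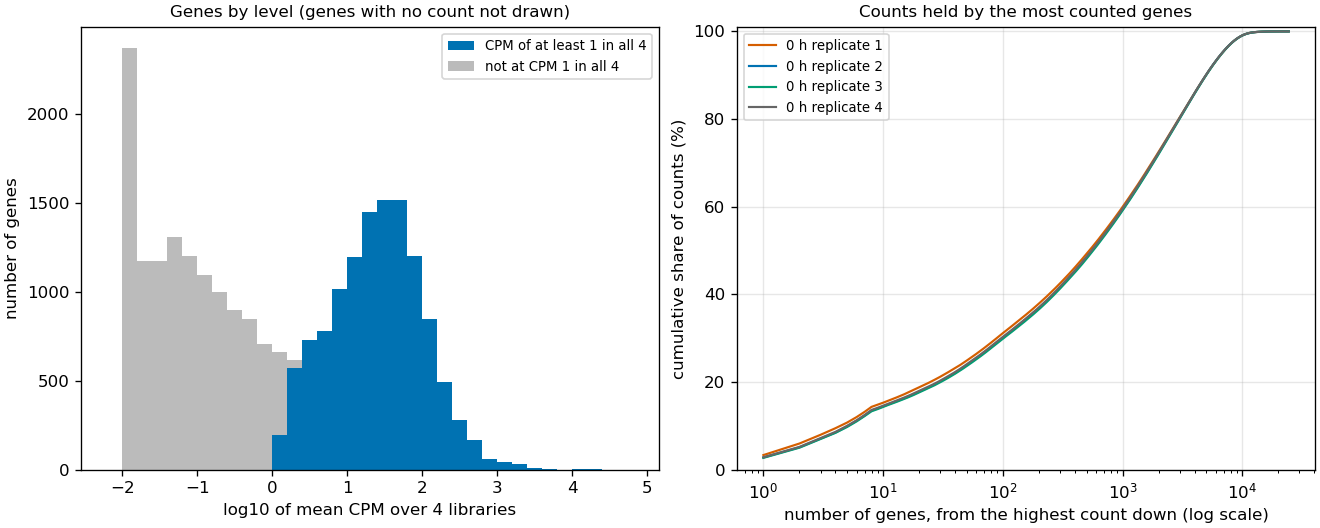
Left, number of genes by log10 of the mean CPM over the 4 untreated libraries, with the 12119 detected genes in blue and genes that did not reach 1 CPM in all 4 libraries in grey. Right, cumulative share of counts (%) against the number of genes, from the most counted gene down on a log axis, with 1 line per library. The lines bend at the 8 genes above 10000 CPM and reach 29.9% to 31.1% at 100 genes.

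The α1 chain of type I collagen, Col1a1 (chr11:94936224-94953042, mm10), was the most counted gene. It had 33507, 28035, 27161 and 28514 CPM in replicates 1 to 4, a mean of 29304 ± 2857 CPM (SD, n = 4). The α2 chain, Col1a2 (chr6:4504814-4541544), had 26340, 23184, 23174 and 23673 CPM. Replicate 1 was the highest library for both chains, and the other 3 lay close together. Together the 2 chains took 5.34% ± 0.44 of all counts (SD, n = 4). Per length, Col1a1 stood at 18009 ± 1710 TPM and Col1a2 at 7820 ± 470 TPM (SD, n = 4), a ratio of 2.30 ± 0.079. That ratio hangs on the annotation of Col1a2, whose exons merge to 12426 bases while its longest transcript has 5348 bases. With the longest transcript as the length Col1a2 had a mean of 13910 TPM and the ratio was 1.10 ± 0.038 (SD, n = 4).

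All 11 fibrillar collagen genes were detected. Type I made up 78.5% ± 1.13 of the TPM of these 11 genes, the type V chains 17.2% ± 0.96, and type III 2.78% ± 0.16 (SD, n = 4). Col5a2, a chain of the type V collagen that sits inside type I fibrils and limits their width, reached 4767 ± 114 TPM, while its partner Col5a1 had 861 ± 60.3 TPM and Col5a3 had 11.1 ± 1.17 TPM (SD, n = 4). Col3a1, the single chain of type III collagen that is prominent in healing tendon, had 2255, 2210, 2198 and 2214 CPM, among the tightest values of any collagen, and 912 ± 9.55 TPM (SD, n = 4). Col11a1, a minor fibril chain better known from cartilage, followed at 430 ± 17.5 TPM. Col2a1, the cartilage fibril collagen, was low at 20.1 ± 5.94 TPM and spread widely, with 61.3, 52.0, 40.5 and 30.1 CPM in replicates 1 to 4.

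The helix of these collagens is encoded with glycine codons at fixed short steps, and proline is common between them. The stretches below are the first 60 bases of the longest uninterrupted run of such repeats in the 4 fibrillar collagens of highest TPM, read 5′ to 3′ from the GENCODE M21 transcript, with the glycine codon that opens each repeat in capitals. Glycine codons elsewhere in a repeat are in lower case.
Col1a1: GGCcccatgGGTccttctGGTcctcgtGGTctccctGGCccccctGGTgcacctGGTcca
Col1a2: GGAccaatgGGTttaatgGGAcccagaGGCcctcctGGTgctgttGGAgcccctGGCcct
Col5a2: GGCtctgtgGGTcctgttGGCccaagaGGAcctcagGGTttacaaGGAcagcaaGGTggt
Col3a1: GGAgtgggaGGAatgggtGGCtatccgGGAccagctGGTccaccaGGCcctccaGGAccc
The runs go on for 338 repeats in Col1a1 (from codon 168), 339 in Col1a2 (from codon 97), 339 in Col5a2 (from codon 211) and 344 in Col3a1 (from codon 164). In the stretches shown, proline codons (ccn) fill many of the remaining positions in Col1a1, Col1a2 and Col3a1, and fewer in Col5a2. Weighted by TPM, glycine took 8.85% ± 0.13 of the codons of all detected genes and proline 7.25% ± 0.10 (SD, n = 4). Counting each detected gene once, the shares were 6.46% and 6.22%. Without the collagens the weighted shares were 6.91% ± 0.017 for glycine and 6.09% ± 0.034 for proline (SD, n = 4). The collagens made up 10.2% ± 0.61 of the weighted codons and 29.9% ± 1.34 of the weighted glycine codons (SD, n = 4), which describes message and not protein made.

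Of 33 other collagen genes, 17 were detected, 15 had some counts and Col9a1, of cartilage type IX, had none. Col12a1, a collagen that binds to fibril surfaces, stood at 431 ± 7.91 TPM, and the related Col14a1 at 8.73 ± 0.48 TPM (SD, n = 4). The 3 main chains of the beaded type VI collagen that surrounds tenocytes, Col6a1, Col6a2 and Col6a3, had 979 ± 59.1, 355 ± 24.9 and 166 ± 10.8 TPM, while Col6a4, Col6a5 and Col6a6 had less than 1 TPM each. The basement membrane pair Col4a1 and Col4a2 had 173 ± 6.85 and 226 ± 12.5 TPM, and Col4a3, Col4a4 and Col4a6 did not pass detection. All 44 collagen genes together held 8.29% of the counts in replicate 1 and 7.20% to 7.45% in the other 3 libraries.

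By TPM the highest gene was Sparc (chr11:55394500-55423183), a secreted glycoprotein that binds collagen, at 21168 ± 96.4 TPM (SD, n = 4). Its 4 libraries had 19915, 19595, 19970 and 20030 CPM, a narrower range than either type I chain. Thbs4, a thrombospondin of tendon and muscle matrix, had 14936 ± 523 TPM and Thbs1 had 8330 ± 319 TPM (SD, n = 4). Of the summed TPM of the 5 thrombospondin genes, Thbs4 held 62.3% ± 1.54 and Thbs1 34.8% ± 1.67, leaving little to Thbs2, Thbs3 and Comp. Fn1, fibronectin, reached 4903 ± 238 TPM with 15081, 14109, 13349 and 14278 CPM by library. Of 42 matrix glycoprotein genes 38 were detected and 3 had no count in any library, namely Tnr, Matn1 and Ibsp, which are known from brain, cartilage and bone. Eln, elastin, was at 13.8 ± 0.97 TPM, against 469 ± 30.8 TPM for the microfibril gene Fbn1 and 2018 ± 74.7 TPM for Fbln2 (SD, n = 4).

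**Figure D2:**
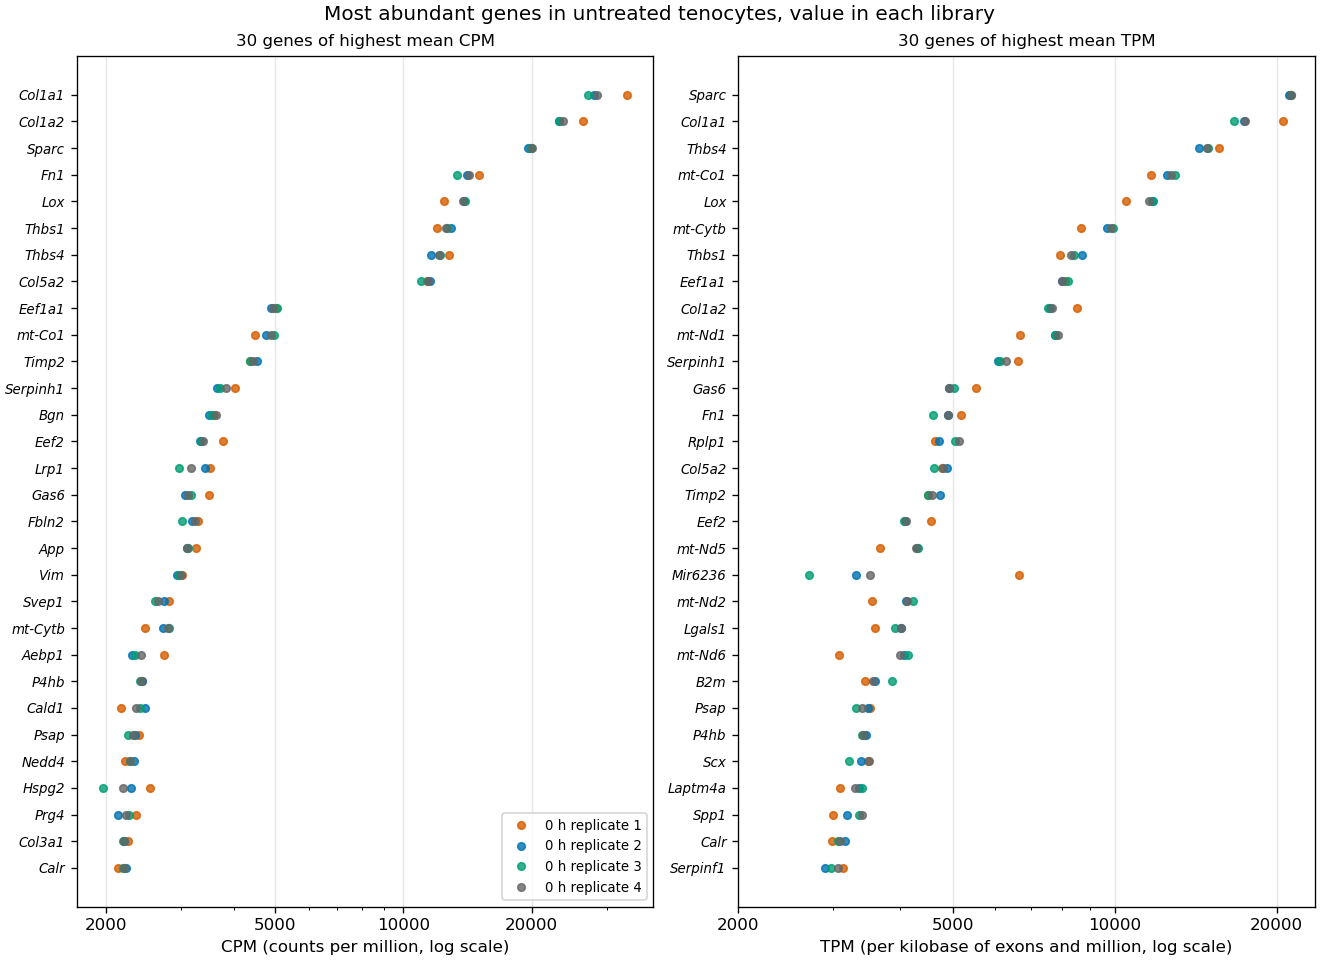
The 30 named genes of highest mean CPM (left) and of highest mean TPM (right) in untreated tenocytes, each on a log axis, with 1 point per library. The 8 matrix genes stand apart above 10000 CPM on the left, Sparc leads on the right at 21168 TPM, and Mir6236 is the gene whose points spread most, with replicate 1 highest.

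Among 29 proteoglycans 26 were detected and none was without a count. Small leucine-rich proteoglycans, which shape fibrils, were among the highest of this group. Fmod had 2677 ± 207 TPM, Ogn 2450 ± 191, Bgn 2360 ± 27.2, Prelp 1723 ± 78.6 and Dcn 1055 ± 55 TPM (SD, n = 4). Prg4, lubricin, which coats gliding surfaces, had 2356, 2141, 2270 and 2230 CPM and 2120 ± 74.8 TPM. Gpc4 had 1790 ± 28.9 TPM, and both Prg4 and Gpc4 stood above Prelp and Dcn. The large aggregating proteoglycan Acan had 0 to 0.275 CPM, and Vcan had 30.6 ± 2.76 TPM.

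The machinery that folds, modifies and crosslinks collagen was expressed almost whole: 29 of 30 genes were detected, and Tll2, a relative of the procollagen protease Bmp1, had a single read. Lox, the lysyl oxidase, had 12477, 13856, 13914 and 13775 CPM and 11404 ± 613 TPM (SD, n = 4). Replicate 1 was the lowest library for Lox, outside the narrow range of the other 3. Lox held 92.2% ± 0.62 of the TPM of the 5 lysyl oxidase genes. Serpinh1, the collagen chaperone Hsp47, stood at 6274 ± 244 TPM and P4hb, the β subunit of prolyl 4-hydroxylase, at 3423 ± 27.2 TPM. The catalytic subunit P4ha1 had 1419 ± 11.7 TPM, P4ha2 103 ± 1.92 and P4ha3 65.3 ± 6.06 TPM. The lysyl hydroxylase of telopeptide crosslinks, Plod2, had 72.3 ± 5.43 TPM, below Plod1 at 366 ± 17.8 and Plod3 at 343 ± 19.1 TPM. Pcolce, which speeds removal of the procollagen C-propeptide, had 2207 ± 95.3 TPM, and the proteases Bmp1 and Adamts2 had 111 ± 8.09 and 130 ± 4.82 TPM (SD, n = 4).

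On the degrading side 31 of 35 proteases and inhibitors were detected. The inhibitor Timp2 led this list per length. It had 4586 ± 109 TPM and took 69.9% ± 0.88 of the TPM of the 4 TIMP genes, and Timp1 had 1753 ± 75.2 TPM. Mmp14, the membrane collagenase, had 491 ± 14.7 TPM, Mmp2 373 ± 11.5 and Mmp13 365 ± 33.7 TPM (SD, n = 4). Mmp8 and Mmp9 had less than 1 CPM in every library. The lysosomal cathepsins Ctsd, Ctsb, Ctsl and Ctsk, the last a collagen-cleaving one, had 2318 ± 41.2, 1161 ± 19.0, 1129 ± 44.8 and 1020 ± 39.0 TPM. Across the 6 matrix lists described so far, 152 of 180 genes were detected. The 180 genes held 21.4% ± 0.56 of the counts (SD, n = 4) and made up 35 of the 100 genes of highest mean CPM and 12 of the 20. Per length they held 16.6% ± 0.25 of the TPM (SD, n = 4) and made up 30 of the 100 genes of highest mean TPM and 10 of the 20.

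Genes outside the matrix lists were also among the most abundant. Chaperones of the endoplasmic reticulum were among the 40 genes of highest CPM: Pdia3 had 2531 ± 121, Calr 3075 ± 72.9 and Hspa5 1751 ± 75.7 TPM (SD, n = 4). Psap, a precursor of lysosomal activators, had 3424 ± 90.5 TPM and Gpnmb, a membrane glycoprotein, had 1140 ± 4.44 TPM. Aebp1, a secreted carboxypeptidase-like protein that binds collagen, had 2740, 2310, 2344 and 2426 CPM and 2440 ± 186 TPM. Lrp1, an endocytic receptor, had 3525, 3415, 2970 and 3172 CPM, with replicate 3 lowest. Of genes with no place in the matrix lists the mitochondrial mt-Co1 was highest at 12455 ± 552 TPM, followed by mt-Cytb at 9534 ± 580 TPM and, first among nuclear genes, the translation factor Eef1a1 at 8055 ± 97.1 TPM (SD, n = 4).

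Tendon lineage markers were present and in part very high. Of 20 markers 19 were detected, and Clec3a had no count. Scx (chr15:76457452-76459458) had 1736, 1665, 1599 and 1748 CPM and 3390 ± 132 TPM (SD, n = 4). Replicate 3 was lowest and replicate 4 highest, within a narrow range. The other transcription factors of the list were lower per length, with Mkx at 217 ± 12.1 TPM and Egr1 at 25.1 ± 2.52 TPM. Tnmd had 187, 173, 223 and 203 CPM and 586 ± 62.8 TPM, with replicate 2 lowest and replicate 3 highest. Angptl7, Cilp and Comp had 1465 ± 55.4, 1206 ± 61.6 and 287 ± 34.0 TPM. Tnc, tenascin C of loaded and healing tendon, had 88.9 ± 9.06 TPM, and Kera, a proteoglycan of cornea and tendon, had 47.4 ± 9.43 TPM. The defining markers of the labelled cell type were thus present in all 4 libraries.

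Receptors for this matrix were expressed unevenly. Of 23 integrin and collagen receptor genes 21 were detected. Itgb1, the common β1 chain, had 1849 ± 77.3 TPM, well above its collagen-binding partners Itga11 at 14.9 ± 1.24, Itga1 at 8.84 ± 0.40, Itga10 at 5.18 ± 0.25 and Itga2 at 2.56 ± 0.50 TPM (SD, n = 4). Ddr2, a kinase receptor for fibrillar collagen, had 341 ± 12.9 TPM, Ddr1 had 69.1 ± 3.56, and Mrc2, which takes up collagen fragments, had 1090 ± 75.8 TPM. Of 28 actin and filament genes 27 were detected. Vim, vimentin of mesenchymal cells, had 2539 ± 16.6 TPM, Actb 1989 ± 34.8 and Acta2, smooth muscle actin, 1179 ± 69.9 TPM. Of the other contractile genes Tpm4 had 972 ± 63.0, Tpm1 868 ± 55.4, Cnn2 851 ± 8.50 and Myh9 431 ± 19.1 TPM. Others of the list, known from smooth or striated muscle, were lower than these 4: Tagln had 15.1 ± 2.71, Cnn1 10.8 ± 0.54, Myh11 1.41 ± 0.39 and Des 0.245 ± 0.068 TPM (SD, n = 4). Tagln shares 62.4% of its exonic bases with a gene on the opposite strand. How reads in shared bases were counted is not known, so they may be mixed between genes or missing from either. The low level of Tagln is therefore uncertain. Opposite-strand genes also overlap 23.4% of the bases of Ccnd1, 20.1% of Fbn1, 16.3% of Smtn, 15.1% of Csf1r, 12.8% of Ctsb and 11.7% of Plod3, which are named elsewhere. Itga10 shares 33.5% with a gene on its own strand.

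Genes of the IGF axis, which the added ligand would act on, were read next. Of 22 genes 17 were detected, 4 had some counts and Irs4 had none, beside 11617 detected of all 17250 protein-coding genes. Igf1r (chr7:67952827-68233668), the IGF1 receptor, had 166, 207, 175 and 196 CPM and 44.8 ± 4.76 TPM (SD, n = 4). Insr, the insulin receptor, had 21.8 ± 1.20 TPM, and Igf2r, which clears IGF2 and carries lysosomal enzymes, had 143 ± 2.85 TPM. The adaptors stood at 39.4 ± 2.90 TPM for Irs1 and 23.5 ± 1.43 TPM for Irs2. The cells carried message for the ligand itself: Igf1 (chr10:87858265-87937042) had 175, 196, 204 and 184 CPM and 77.3 ± 5.54 TPM, whereas Igf2 had 0.13 to 0.32 CPM. Ghr, the growth hormone receptor upstream of Igf1, had 64.7 ± 3.73 TPM. Of 6 genes named as IGF binding proteins, 4 stood above both Igf1 and Igf1r per length. Igfbp6 had 1573 ± 88.2, Igfbp4 1423 ± 74.8, Igfbp7 409 ± 16.4 and Igfbp3 376 ± 15.0 TPM. Igfbp2 at 63.9 ± 3.39 TPM was below Igf1, and Igfbp5 at 40.2 ± 5.22 TPM was below Igf1 and overlapped the level of Igf1r. Igfbp4 held 36.6% ± 0.37 of the TPM of the 6 genes. Pappa, the protease that cuts Igfbp4, had 9.78 ± 1.43 TPM, and its inhibitor Stc2 had 64.4 ± 5.78 TPM (SD, n = 4).

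Other growth factor pathways showed a similar mix of receptors and ligands. Of 27 receptors 18 were detected, led by Tgfbr2 at 417 ± 14, Axl at 373 ± 8.99 and Pdgfrb at 160 ± 7.9 TPM, while Pdgfra stood at 19.6 ± 1.3 TPM (SD, n = 4). Fgfr1 had 111 ± 3.45 TPM, and Fgfr3 and Fgfr4 did not pass detection. The neurotrophin receptors Ntrk2, Ntrk3 and Ngfr did not either, although the ligand Bdnf had 23.2, 38.6, 34.6 and 37.1 CPM, with replicate 1 lowest. Of 36 ligands 28 were detected. Among the TGF-β isoforms, Tgfb3 at 412 ± 14 TPM stood above Tgfb1 at 25.4 ± 2.18 and Tgfb2 at 18.7 ± 1.55 TPM. Gas6, the ligand of Axl, had 5100 ± 285 TPM, higher than any listed growth factor. Gdf5 and Gdf7, which can induce tendon-like tissue, and the muscle inhibitor Mstn were below detection, with 1 read over the 4 libraries for Gdf5. Their relative Gdf6 was detected, with 10.8, 11.6, 6.75 and 12.1 CPM in replicates 1 to 4.

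Hox genes keep a record of a cell's position along the body, and the genes of high number, at the 5′ ends of the 4 clusters, are used at caudal and distal positions. Of 34 Hox genes 21 were detected. The 14 genes of paralog groups 9 to 13 held 86.1% ± 0.30 of the summed Hox TPM (SD, n = 4), and the 20 genes of groups 1 to 8 held 13.9% ± 0.30. Hoxb9 was highest with 89.8, 86.2, 90.1 and 99.6 CPM and 143 ± 8.42 TPM, followed by Hoxc12 at 108 ± 14 and Hoxb13 at 78.4 ± 4.72 TPM (SD, n = 4). Hoxa13 and Hoxc13 had 28.5 ± 0.98 and 29.7 ± 2.54 TPM. Clusters A, B and C held 19.99% ± 0.78, 46.6% ± 1.33 and 33.2% ± 1.63 of the Hox TPM, and cluster D held 0.209% ± 0.068. None of the 4 cluster D genes analysed here was detected: Hoxd10 had no count, Hoxd13 had 1 read in all, and Hoxd8 and Hoxd9 had 40 and 22 reads over the 4 libraries. Hoxa11 shares 35.0% and Hoxb3 52.9% of their exonic bases with antisense transcripts.

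**Figure D3:**
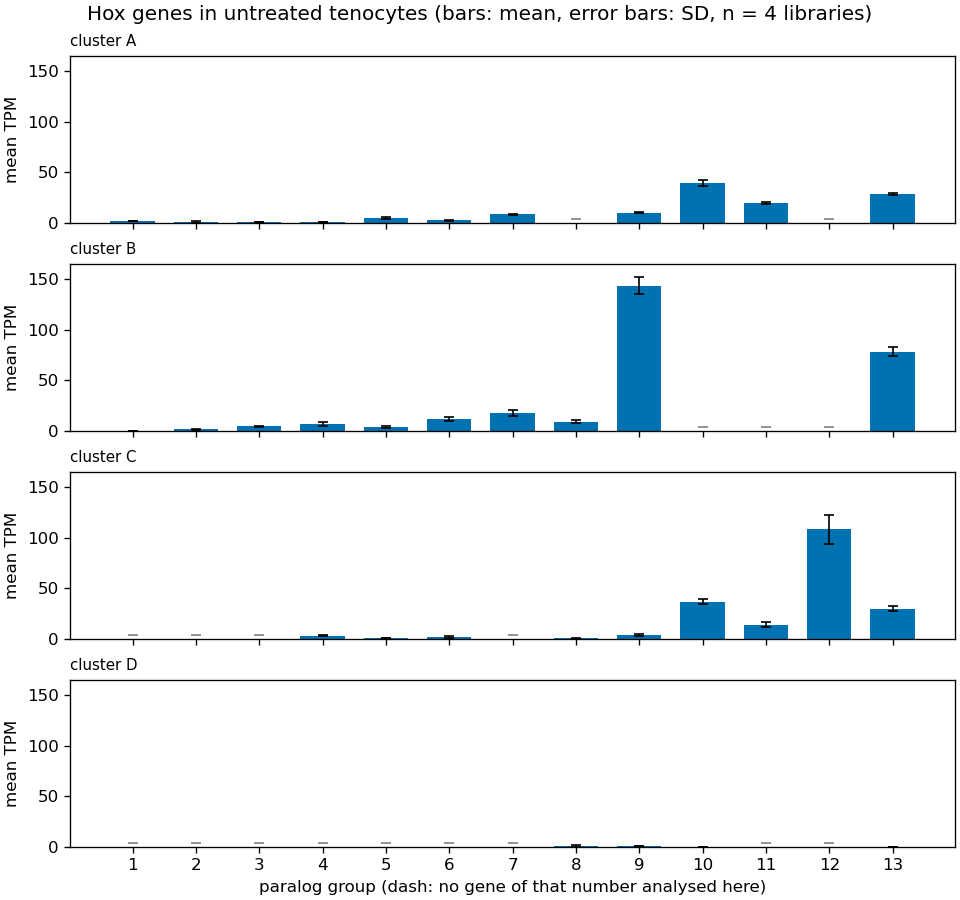
Mean TPM of each Hox gene in untreated tenocytes by cluster (panels) and paralog group (horizontal axis); bars give the mean and error bars the SD of 4 libraries. Hoxb9, Hoxc12 and Hoxb13 are the tallest bars, and the cluster D panel is nearly empty.

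Limb and mesenchymal transcription factors were read beside the Hox genes. Of 24 genes 19 were detected. Twist1 had 161 ± 6.58, Snai2 87.8 ± 4.66, Prrx1 81.0 ± 6.25 and Meox2 73.9 ± 2.87 TPM (SD, n = 4). The hindlimb factor Tbx4 had 14.1, 11.1, 10.2 and 11.6 CPM, whereas the forelimb factor Tbx5 had 3 reads in all and Pitx1, another hindlimb factor, had none. Gli1, a readout of Hedgehog signalling, also had no count.

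Transcripts of dividing cells were at low levels in CPM. Of 30 S phase and mitosis genes 29 were detected, but the 30 summed to 300 to 341 CPM. The median of all 30 was 8.12 CPM, against 26.1 CPM for detected genes alone, and neither value allows for gene length. Mki67 had 13.4, 16.8, 14.3 and 11.7 CPM. Top2a, the topoisomerase of mitotic cells, had 16.02, 30.3, 21.3 and 21.0 CPM, with replicate 2 highest and replicate 1 lowest. Of the D cyclins that answer growth factors, Ccnd1 had 251 ± 11.6 and Ccnd2 181 ± 12.9 TPM. The kinase inhibitors Cdkn1a and Cdkn2b had 265 ± 12.5 and 256 ± 17.2 TPM (SD, n = 4). All 26 immediate early genes were detected, with a median member at 19.1 CPM and 3 members, Fosl2, Klf6 and Klf4, at 100 CPM or more. Fos had 2.56, 3.16, 3.80 and 2.38 CPM and Egr1 had 25.8 to 31.7 CPM. Per length Klf4 was highest at 220 ± 5.40 TPM, followed by Klf6 at 158 ± 14.4 and Fosl2 at 120 ± 7.08 TPM (SD, n = 4).

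Of 28 chemokine and cytokine genes 14 were detected. Csf1, the growth factor of macrophages, stood far above the rest of them at 1192 ± 32.0 TPM, with 1562, 1596, 1509 and 1573 CPM. Ccl7 and Ccl2, which attract monocytes, had 243 ± 16 and 224 ± 27.1 TPM, and Cxcl12 had 158 ± 6.67 TPM (SD, n = 4). Il6, Il1a, Tnf and Cxcl10 were below 1 CPM in every library, and Il10 and Cxcl13 had no count. All 21 glycolysis genes and all 14 commonly used reference genes were detected. Aldoa led glycolysis at 1033 ± 32.3 TPM, and lactate dehydrogenase was mainly Ldha, at 702 ± 11.1 TPM beside 57.6 ± 2.26 TPM for Ldhb. Cytosolic ribosomal protein genes, 81 of 84 of them detected, held 2.14% ± 0.072 of the counts and 5.13% ± 0.17 of the TPM, and mitochondrially encoded genes held 1.42% ± 0.077 of the counts (SD, n = 4).

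Markers of other cell types were then read, since a tendon culture can hold other cells. In bulk RNA, fewer cells of a type and less RNA per cell cannot be told apart. Macrophage markers were the broadest: 12 of 13 were detected, with summed levels of 273 to 345 CPM. Lyz2, lysozyme, gave 202, 183, 218 and 231 CPM, the larger part of that sum, while the defining markers Adgre1, Cd68 and Csf1r had 9.46 to 14.6, 13.4 to 18.4 and 9.22 to 10.7 CPM, and Ptprc, the pan-leukocyte antigen, had 1.89 to 3.32 CPM. The part of such cells in the levels of Csf1r, Lyz2 and the cathepsins was not tested. T and B cell, erythroid, mast cell and neutrophil lists gave no detected gene, and Cd8a, Ighm, Cpa3, Tpsb2, S100a8 and Mpo had no count.

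Of 10 pericyte and smooth muscle markers 6 were detected, with summed levels of 87.0 to 97.3 CPM, of which Smtn, smoothelin, gave 54.0 to 60.6 CPM. The pericyte markers Rgs5, Kcnj8 and Abcc9 did not pass detection. Of 11 endothelial markers only Tek and Egfl7 were detected. Pecam1, Cdh5 and Kdr had 0.05 to 0.79 CPM and Cldn5 had none, while Tek, the angiopoietin receptor, had 35.3 to 38.8 CPM. Skeletal muscle was represented by Acta1 alone, at 1.93 to 2.60 CPM, and 7 of 13 markers had no count, among them Myod1, Pax7 and Ckm. In the Schwann cell list Mbp was detected, and Sox10 had 0 to 0.54 CPM. In the chondrocyte list 6 of 11 were detected, including Sox9 at 25.4 ± 2.02 and Sox6 at 12.96 ± 0.60 TPM, but Acan was at or under 0.275 CPM and Matn1 and Col9a1 had no count. Osteoblast markers Sp7 and Bglap had 1 read each and Ibsp and Dmp1 none, beside 23.4 to 28.2 CPM of Runx2. Of 8 adipocyte markers 3 were detected, Cebpa at 15.6 to 21.1, Fabp4 at 4.58 to 7.24 and Pparg at 1.92 to 3.16 CPM, while Adipoq had 0.20 to 0.50 CPM and Lep no count. Of 11 epithelial and keratinocyte markers 3 were detected, Dsp at 8.66 to 10.9, Trp63 at 3.02 to 4.55 and Krt10 at 1.38 to 2.41 CPM, while Krt14 and Krt8 had no count and Krt5 had 2 reads in all. The neuronal list gave Map2 and Tubb3, while Nefl had no count. Xist, the RNA of the inactive X chromosome, had 846 to 994 CPM in the 4 libraries, and Tsix, which overlaps it on the other strand, had 1 read in all.

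**Figure D4:**
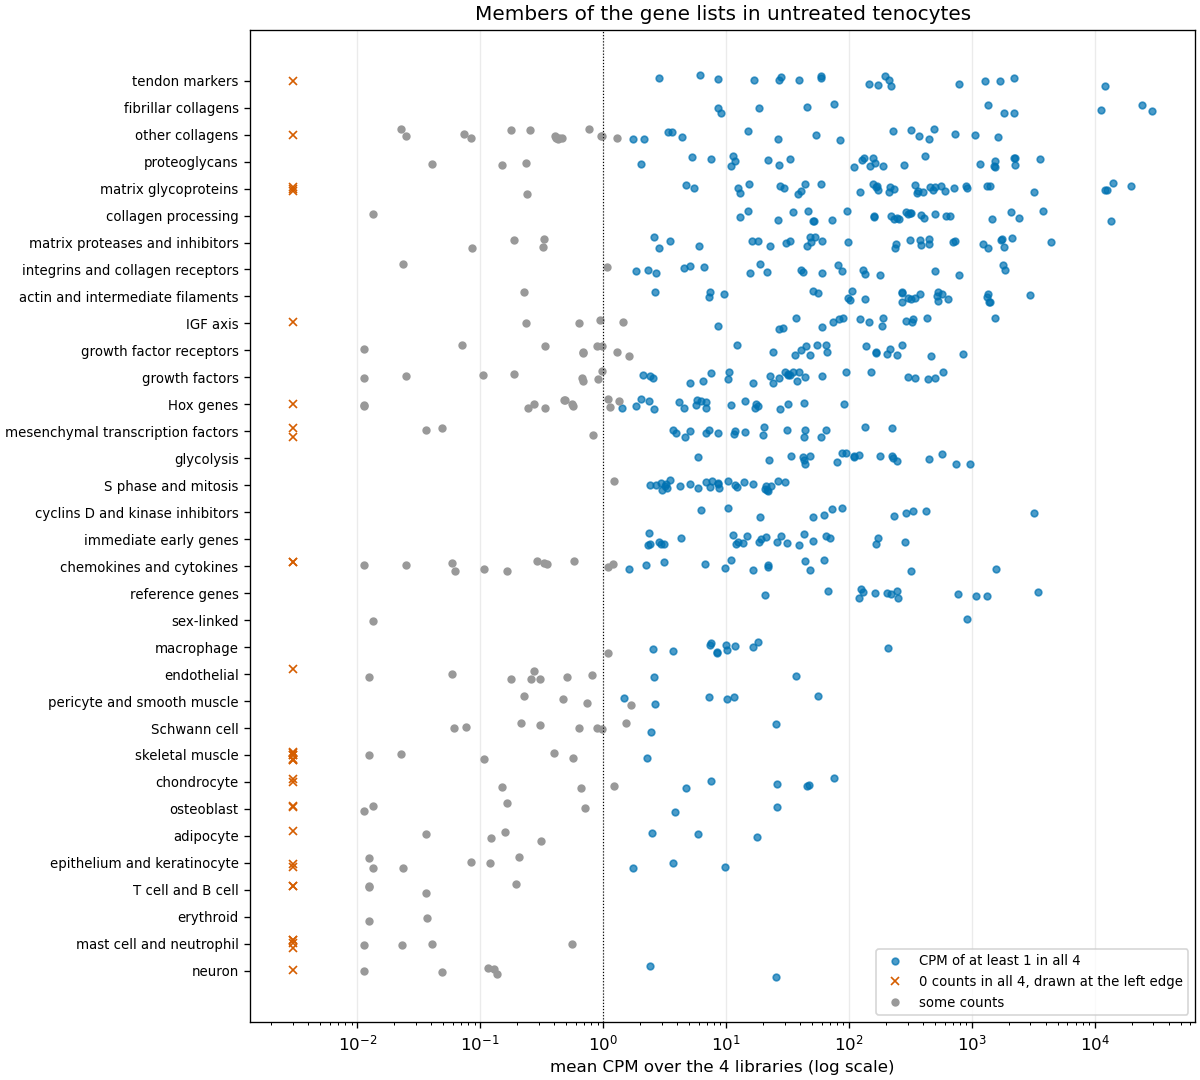
Mean CPM over the 4 untreated libraries (log axis) of each member of 34 gene lists, 1 row per list; blue points are detected genes, grey points had some counts, and crosses at the left edge had no count. Most points of the fibrillar collagen, proteoglycan, glycoprotein and collagen processing rows lie right of 100 CPM, and the lymphoid, erythroid, mast cell and muscle rows lie left of the dotted line at 1 CPM apart from Acta1.

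Among the 5576 genes without a count, a count of 0 allows up to 3 counts per library, or 0.135 to 0.161 CPM at these depths, an allowance for counting error only. Families of genes used in sense organs and skin filled part of this class. Of 105 olfactory receptor genes 64 had no count and none was detected, and of 29 vomeronasal receptors 16 had none. Of 29 keratin genes 16 had none and 3 were detected. Of the 621 list genes in the table, 460 were detected, beside 11617 of all 17250 protein-coding genes.

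The 4 libraries were close to each other. Pearson correlations of log2 CPM across the 12119 detected genes were 0.992 to 0.993 for the 6 pairs, which describes the genes of shared libraries and not independent points. Between 3.24% and 4.79% of detected genes differed by over 1.5-fold within a pair. The median coefficient of variation (CV, the SD over the mean) of a detected gene was 7.75%. The biological coefficient of variation, edgeR's estimate of the spread beyond counting noise, was 7.35% over all detected genes, and its trend was lower at higher levels, with 10.5% at 10 CPM, 5.92% at 100 CPM and 5.47% at 3000 CPM. Without replicate 1 the common value was 6.17%, and without each of the others it was 7.33% to 7.96%. Among genes at 10 CPM or more, the median CV was 3.03% for 23 actin and filament genes, 3.64% for 20 glycolysis genes and 5.10% for 29 collagen processing genes. It was 6.34% for all such genes, 12.6% for 6 macrophage markers and 12.9% for 4 chondrocyte markers. The lists were not matched for level, with which the trend above changes. Dnajb11, a chaperone cofactor of the endoplasmic reticulum, had the lowest CV of all genes at 10 CPM or more, 0.140% at 169 to 170 CPM. P4hb and P4ha1 had 0.488% and 0.652%. These values were picked from the lowest of many genes in 4 libraries, so they may be low by chance.

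Replicate 1 stood apart on some measures and not on others. Chi-square values per degree of freedom were 8.40 to 9.90 for the 3 pairs with replicate 1 and 3.95 to 4.28 for the other 3. The median absolute log2 difference of a detected gene from the mean of the other libraries was 0.118 in replicate 1 and 0.086 to 0.099 elsewhere. Yet detected genes over 1.5-fold from that mean numbered 213 in replicate 1, against 193, 333 and 297 in replicates 2 to 4. The deviation of a gene from the mean of the 4 libraries went with the GC content of its exons in replicate 1. The Spearman coefficient over 12113 genes was 0.52 there and -0.31 to -0.066 in the others, a description across genes. The 4 deviations of a gene cancel out by construction, so a rise in replicate 1 means an average fall in the others. The negative sign of their coefficients is therefore not a separate observation about those libraries. In the lowest of 10 bins of GC content the median gene of replicate 1 differed by -0.12 from the mean of the 4 libraries on the log2 scale, and in the highest bin by 0.12. The collagen genes as a whole were highest in replicate 1, as given above. Whether the composition of this library has a part in that was not tested. The description of replicate 2 in the labels repeats that of replicate 1, but their counts differ by 8.60 per degree of freedom, more than sampling noise, so both were kept as separate libraries.

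Of the 20 named genes of highest spread for their level, some fell into the sets described below. Others, such as Col2a1, Top2a and Sfrp2, did not. Replicate 1 lay farthest from the rest for 9 of the 20 genes, replicate 3 for 8, replicate 2 for 2 and replicate 4 for 1. Rn18s-rs5, a gene model related to 18S ribosomal RNA, had 2086, 943, 812 and 969 CPM, and Lars2, annotated as the mitochondrial leucyl-tRNA synthetase, had 679, 355, 293 and 366 CPM. Mir6236 had 203, 99.9, 82.7 and 108 CPM. In all of them replicate 1 was highest, by 2.32 to 2.57 times over the lowest library, and the other 3 were close. Malat1, a nuclear long non-coding RNA, had 1318, 1103, 932 and 794 CPM, with replicate 1 highest and replicate 4 lowest.

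Interferon-induced genes formed the other set, with replicate 3 highest. Ifit1, an RNA-binding antiviral protein, had 11.4, 11.1, 32.4 and 11.7 CPM, and Isg15, a ubiquitin-like modifier, had 3.37, 2.17, 8.30 and 2.29 CPM. Bst2, a membrane tether of virus particles, had 72.6, 53.0, 94.2 and 54.0 CPM. A list of 36 interferon-induced genes, chosen after these values were seen and so no evidence of its own, had 26 detected members, and all 26 were highest in replicate 3. The median of replicate 3 over the mean of the other 3 libraries was 1.58-fold, with a range of 1.18 to 3.18, beside 1.01-fold over all detected genes, of which 28.4% were highest in replicate 3. The summed level of the 26 genes was 940 CPM in replicate 3 and 643 to 677 CPM in the other libraries. The macrophage markers summed to 330 CPM in replicate 3 and 345 CPM in replicate 4, and their part in the interferon-induced levels was not tested.

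**Figure D5:**
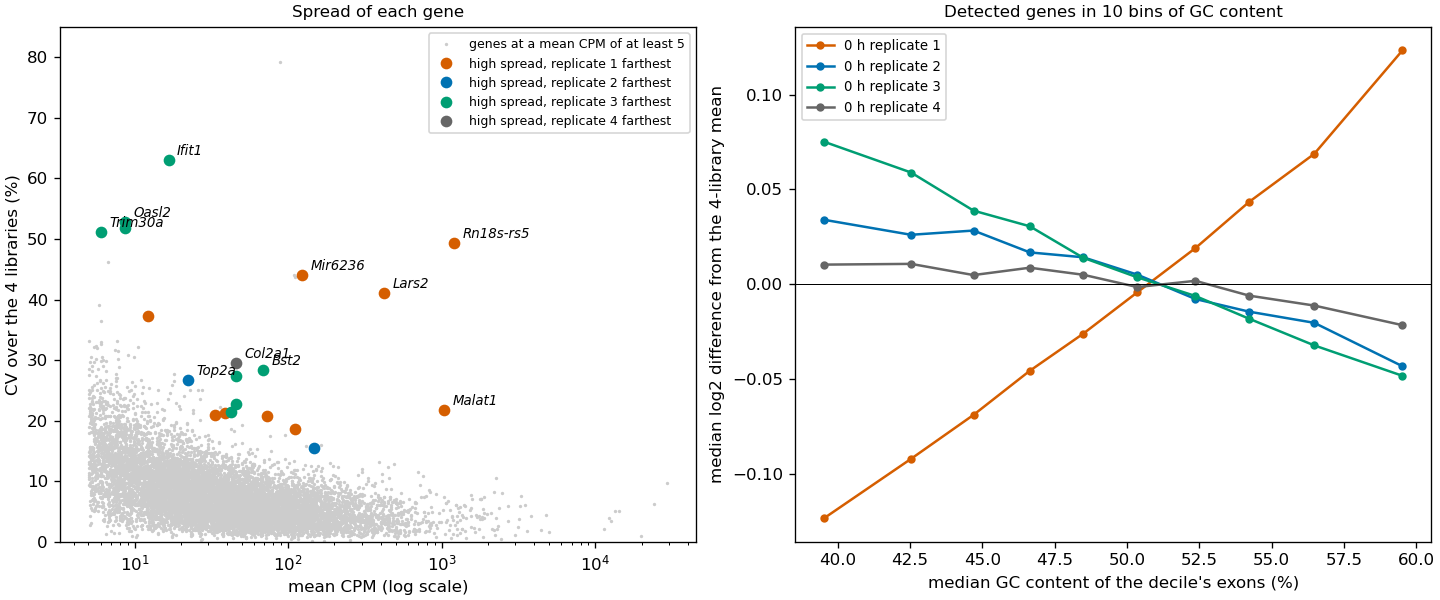
Left, CV over the 4 libraries (%) against mean CPM on a log axis for genes at a mean of 5 CPM or more, with the 20 named genes of highest spread for their level coloured by the library that lay farthest from the rest. Right, median log2 difference of each library from the mean of the 4, in 10 bins of exon GC content. The line of replicate 1 climbs to 0.12 and the other 3 lines fall. The 4 differences of a gene cancel out by construction, so that fall is not a separate observation.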

How the data were processed

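RNA was extracted with the miRNeasy Micro Kit with a DNase I step and 500 ng went into standard Illumina libraries, per the labels' protocols. The authors deposited raw counts per gene for 20 libraries, and the 4 untreated columns were used as deposited. FastQC, STAR, edgeR and the mm10 build appear, with no versions, per the submitters' processing notes. The sources used here do not name the counting tool, its annotation or its use of strand. An edgeR table that the authors also deposited was not used.

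CPM is the count divided by the library's total. TPM was computed with merged exon lengths of GENCODE M21 (mm10), which matched 29945 of 29986 gene IDs. Spread was estimated with edgeR 4.0.16 in R 4.3.3 from an intercept-only design after checks on simulated data. With 1 group and no contrast, no test between groups was made, and Dixon's ratio alone was used to mark single libraries. Depths were 18666812 to 22282231 counts, and intervals for 0 counts (3 counts) cover counting error only.

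The 34 gene lists (653 genes, 621 in the table, the rest not analysed here) and the members were chosen with earlier results of these data known. Genes are named from the 40 of highest mean CPM and of highest mean TPM, the lists, and the 20 of highest tagwise dispersion over trend at 5 CPM or more. Results for some listed genes are not reported here. The genes of lowest CV and the interferon genes were named after their values were seen. The alternatives tried were other scalings, thresholds, filters, lengths, thinning and leaving out each library.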

Additional observations from a re-analysis of the deposited data

Results flagged for a closer look

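Of 219 values examined (library measures, list sums and genes named above), 8 had 1 library far from the other 3, by a gap beyond the critical value of Dixon's ratio. The critical value is passed by chance in about 1 of 20 groups, and here 3.65% of the values passed it. Some genes were named for their spread, and list sums hold other named genes, so these rates cannot be compared.

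Replicate 1 lay apart for 5 of them. Col1a2 had 26340 CPM there and 23174 to 23673 CPM in the others, and Rn18s-rs5 had 2086 CPM against 812 to 969 CPM. Replicate 1 was the low library for Lox, with 12477 CPM beside 13775 to 13914 CPM, for Itgb1, with 1763 CPM beside 1893 to 1914 CPM, and for Acta2, with 587 CPM beside 653 to 664 CPM.

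Ifit1 had 32.4 CPM in replicate 3 and 11.1 to 11.7 CPM in the others. Replicate 2 lay apart for Ccnd2, at 463 CPM beside 404 to 411 CPM, and for the summed olfactory receptors, at 6.16 CPM beside 4.22 to 4.39 CPM, none of which was detected.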

How the results depend on the processing

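Counts of detected, abundant and listed genes stayed within 1.5 times of those reported under every alternative run. Genes detected in all libraries ranged from 12113 (thinned to the smallest total) to 13019 (edgeR's filterByExpr), and genes at 100 CPM or more from 1679 (on the TPM scale) to 1964 (mitochondrial genes left out). Genes without a count were 9378 when fewer than 3 counts in total were allowed, and 6330 to 6878 with 1 library left out. The common biological coefficient of variation was 7.70% without a filter, 6.58% at 10 CPM or more and 6.17% to 7.96% with 1 library left out. The median CV was 7.73% with RLE scaling, 26.1% without a filter, 6.34% at 10 CPM or more and 6.55% to 7.75% with 1 library left out. With the longest transcript as the length, the mean TPM was 26687 for Sparc, 15259 for Col1a1, 13910 for Col1a2 and 11759 for Thbs4, and the ratio of Col1a1 to Col1a2 was 1.10, which follows from the other lengths. No paired analysis was possible because the untreated libraries form 1 group and no result comes from a test.

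Counts under about 3 per library are at the limit of this depth, levels per length rest on an annotation chosen for this work, and the source of the replicates is not known.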

Other observations

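Among genes at 5 CPM or more, the highest CV of all belonged to Gm23935, a gene model left out above for want of a name, at 79.2%. It had 192, 54.7, 45.4 and 59.7 CPM in replicates 1 to 4. RP23-81C12.1, another such model, had 179, 88.4, 71.6 and 95.1 CPM. Both were highest in replicate 1, as were Rn18s-rs5, Lars2 and Mir6236.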
